A study of Mus musculus with 6 samples.

Results

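The metabotropic glutamate receptor genes Grm2, Grm3, Grm4, Grm5, Grm7 and Grm8 were followed in RNA sequencing of the prefrontal cortex (PFC) of 6-month-old mice. They were taken by gene symbol and are 6 of the 54429 gene rows counted in each of 6 libraries. The groups, of 2 mice each, were WT mice of the C57BL/6 x C3H background given vehicle, PS19(P301S) Tau mice given vehicle, and PS19(P301S) Tau mice given UNC0642. UNC0642 is an inhibitor of the histone methyltransferases EHMT1 and EHMT2, and by the study's methods it was injected at 1 mg/kg once daily for 3 days. WT mice given UNC0642 were not among the libraries analysed here. PS19 mice carry a transgene for human tau with the P301S mutation, driven by the mouse prion protein (Prnp) promoter. All tissue was a bulk lysate, in which fewer cells of a type and less RNA per cell cannot be told apart.

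Metabotropic glutamate receptors are G protein-coupled receptors that set the strength of glutamate synapses over slower times than the receptor channels. Group I receptors, here Grm5, couple to Gq and phospholipase C, sit mainly around the postsynaptic density and are tied to it by Homer and Shank scaffolds. Group II receptors, Grm2 and Grm3, and group III receptors, Grm4, Grm7 and Grm8, couple to Gi/o proteins, lower cyclic AMP and reduce transmitter release from axon terminals. Grm3 is also prominent in astrocytes, and Grm4 is best known from cerebellar granule cells.

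Grm2 was the member that passed the study's threshold in more than one comparison, and the sequence upstream of it is shown beside that of Grm3, its partner in group II. Each run is the 250 bases before the RefSeq start of the gene in GRCm38.p6, read 5′ to 3′ on the minus strand, with CpG dinucleotides in capitals. Both genes lie on that strand, Grm2 at chr9:106643095-106656082 and Grm3 at chr5:9485541-9725170 in GENCODE M21 (GRCm38).
Grm2, chr9:106656110-106656359: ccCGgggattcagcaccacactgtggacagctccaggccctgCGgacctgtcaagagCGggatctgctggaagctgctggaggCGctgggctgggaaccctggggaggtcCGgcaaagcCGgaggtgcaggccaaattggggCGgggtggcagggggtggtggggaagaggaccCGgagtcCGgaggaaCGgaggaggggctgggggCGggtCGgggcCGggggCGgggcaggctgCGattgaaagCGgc
Grm3, chr5:9725353-9725602: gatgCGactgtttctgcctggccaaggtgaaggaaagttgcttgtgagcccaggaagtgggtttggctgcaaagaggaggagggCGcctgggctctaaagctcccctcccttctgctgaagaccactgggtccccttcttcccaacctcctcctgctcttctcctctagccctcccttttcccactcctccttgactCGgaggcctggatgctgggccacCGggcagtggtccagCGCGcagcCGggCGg
The Grm2 window held 16 CpG dinucleotides and the Grm3 window 8, against a median of 6 over 32851 promoter windows of this length. The GC box GGGCGG, searched on both strands, occurred 3 times in the Grm2 window and 1 time in that of Grm3, and 32.7% of all windows held at least 1. Neither window held the cyclic AMP response element TGACGTCA, which was in 1.55% of all windows, or the E-box CANNTG, which was in 66.2%. These matches describe the letters only. RefSeq windows were matched for 4 of the 6 members, and those of Grm7 and Grm8 are not printed.

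The libraries held between 17005664 and 28972176 counts, and each member passed the filter on low counts. Expression is given as CPM, the counts of a gene relative to all counts of its library, scaled by the TMM method. Prnp, which shares its promoter with the transgene, was at 1652 CPM in the library labelled WT replicate 1 and at 873 CPM in WT replicate 2, against 1470 to 1694 CPM in the 4 libraries of transgenic mice. The library labelled WT replicate 1 thus went against its label on this measure, and the fold changes of named genes against WT are given with and without it. Mapt, the mouse tau gene, was at 576 CPM in that library, 449 CPM in WT replicate 2 and 571 to 614 CPM in the transgenic libraries. Whether reads of the transgene were counted for Prnp or Mapt was not tested. Xist, the RNA that coats the silenced X chromosome in female cells, was at 191 to 317 CPM in WT replicate 2 and both Tau libraries and at 0.12 to 0.20 CPM in the other 3. Treatment with UNC0642 and the sex-linked pattern therefore cannot be told apart in the comparison with untreated Tau mice. Within groups Xist differed mainly between the WT libraries, from 0.20 CPM in replicate 1 to 317 CPM in replicate 2. Fits with Xist as a covariate rest largely on that difference, which also holds the doubted label. They cannot separate sex from treatment, and against WT they are not separate evidence from fits without a WT library. Genes of cortical excitatory neurons, 7 in all, summed to 2424 to 2993 CPM, and 8 astrocyte genes to 4692 to 5387 CPM. Tau replicate 2 stood apart: 8 striatal projection neuron genes summed to 253 CPM there and to 97.7 to 122 CPM in the other libraries, and 8 oligodendrocyte genes summed to 5555 against 1454 to 2977 CPM.

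The receptors differed in abundance more than they changed between groups. Grm3 had the highest level per length, with a mean of 76.6 CPM per kilobase of annotated exon over the 6 libraries and a range of 70.5 to 82.9. Grm5 followed with 39.9 CPM per kilobase (34.2 to 43.2), and Grm7 with 17.8 (16.7 to 18.7). Lower levels per length were found for Grm2, with 9.42 (7.34 to 13.2), Grm8, with 5.81 (5.35 to 6.15), and Grm4, with 3.47 (2.38 to 4.63). No 2 neighbours in this order overlapped in their ranges over libraries. The order of Grm2 and Grm8 depended on the length used: per kilobase of the longest transcript their means were 9.79 and 11.99, and their ranges, 7.62 to 13.7 and 11.0 to 12.7, overlapped. Grm3 has the same length, 3049 bases, by both measures, so the second length does not test its place. Before division by length Grm5 was highest, with a mean of 408 CPM against 233 CPM for Grm3. Among the protein-coding genes tested, 97.6% had a lower mean level per length than Grm3, and 42.0% had a lower one than Grm4.

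**Figure D1:**
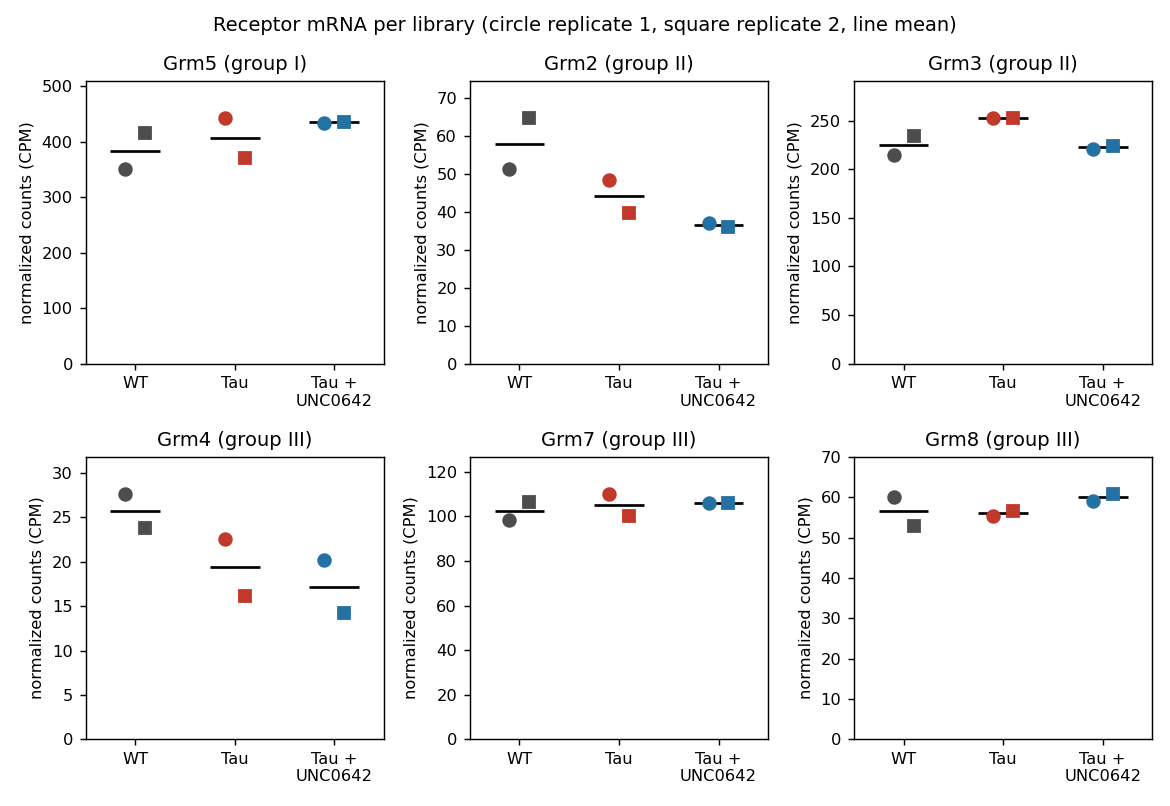
Normalized expression (CPM, vertical axis from 0) of the 6 receptor genes in WT, Tau and UNC0642-treated Tau mice. Circles are replicate 1, squares replicate 2 and lines the mean of the 2 libraries. Grm2 fell from 51.2 and 64.6 CPM in WT to 36.9 and 35.9 CPM in UNC0642-treated Tau mice, while Grm7 stayed between 98.5 and 110 CPM in every library.

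Grm2, an autoreceptor that limits glutamate release, was lower in both Tau groups than in WT mice. It was at 51.2 CPM in the library labelled WT replicate 1 and 64.6 CPM in WT replicate 2, at 48.4 and 39.7 CPM in Tau replicates 1 and 2, and at 36.9 and 35.9 CPM in UNC0642 replicates 1 and 2. The groups did not overlap in any of the 3 comparisons, although the gap between the lower WT and the higher Tau library was small. The means ± SD (n = 2) were 57.9 ± 9.52 CPM for WT, 44.1 ± 6.13 CPM for Tau and 36.4 ± 0.692 CPM for treated Tau mice.

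Grm2 fell by 0.39 on the log2 scale in Tau versus WT mice (standard error 0.13, Benjamini-Hochberg adjusted p = 0.312, edgeR quasi-likelihood fit). Genes were called where the unadjusted p-value was under 0.05 and the change reached 1.2-fold, the study's threshold, and Grm2 met both limits. Without the library labelled WT replicate 1, which leaves libraries with high Xist in this comparison, the log2 fold change was -0.55 and the call was kept. Without WT replicate 2 it was -0.21 and without Tau replicate 2 it was -0.25, and in both fits the call was lost.

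Between UNC0642-treated and untreated Tau mice, the log2 fold change of Grm2 was -0.28, with a 95% interval from -0.58 to 0.017, and it was not called (edgeR adjusted p = 0.587). It was called in 3 of the 6 fits that left out a library, without either WT library or without Tau replicate 2. Without Tau replicate 1 it was -0.13, and with a library left out the values ran from -0.42 to -0.13. With log2 CPM of Xist as a covariate, the value was 0.036. That adjustment rests largely on the difference between the WT libraries, so it cannot separate sex from treatment here. The 7 excitatory neuron genes summed to 2993 and 2575 CPM in the Tau libraries and to 2566 and 2443 CPM in the UNC0642 libraries. Of these genes 2 were called lower after UNC0642 and their median log2 fold change was -0.22. Their part in the values of Grm2 was not tested.

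Grm2 fell by 0.67 on the log2 scale in treated Tau versus WT mice (standard error 0.13, edgeR adjusted p = 0.0912), a change of -37.2% with a 95% interval from -48.8% to -22.9%. This call was kept in all 16 alternative fits, with log2 fold changes from -0.83 to -0.49. Without the library labelled WT replicate 1, which leaves a WT library with high Xist against UNC0642 libraries with low Xist, it was -0.83. Without WT replicate 2, which leaves libraries with low Xist, it was -0.49.

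Grm3, the group II receptor of both neurons and astrocytes, was not called in any comparison. It was at 215 CPM in the library labelled WT replicate 1 and 235 CPM in WT replicate 2, at 252.8 CPM in both Tau libraries, and at 221 and 224 CPM in the UNC0642 libraries. Both Tau libraries were above all others, and the WT and UNC0642 libraries overlapped. Its log2 fold changes were 0.17 in Tau versus WT mice and -0.18 after UNC0642, each with a standard error of 0.074 (edgeR adjusted p = 0.394 and 0.521). The unadjusted p-values, 0.0443 and 0.0320, were under 0.05, but the changes, 12.4% and -12.0%, were below the fold limit. Without the library labelled WT replicate 1, the first value was 0.10 (unadjusted p = 0.225 in edgeR's test). With Xist as a covariate, which rests largely on the WT libraries and cannot separate sex from treatment, the second was -0.060. In treated Tau versus WT mice the value was -0.014, and -0.078 without the library labelled WT replicate 1. The 8 astrocyte genes had summed levels of 4692 and 5182 CPM in WT, 4959 and 4978 CPM in the Tau libraries and 5154 and 5387 CPM in the UNC0642 libraries, of which Slc1a2 made up 3047 to 3605 CPM. Of these 8 genes 2 were called higher in Tau versus WT mice and none after UNC0642. Their median log2 fold change was 0.13 in the former comparison and -0.081 in the latter. Their part in the values of Grm3 was not tested.

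**Figure D2:**
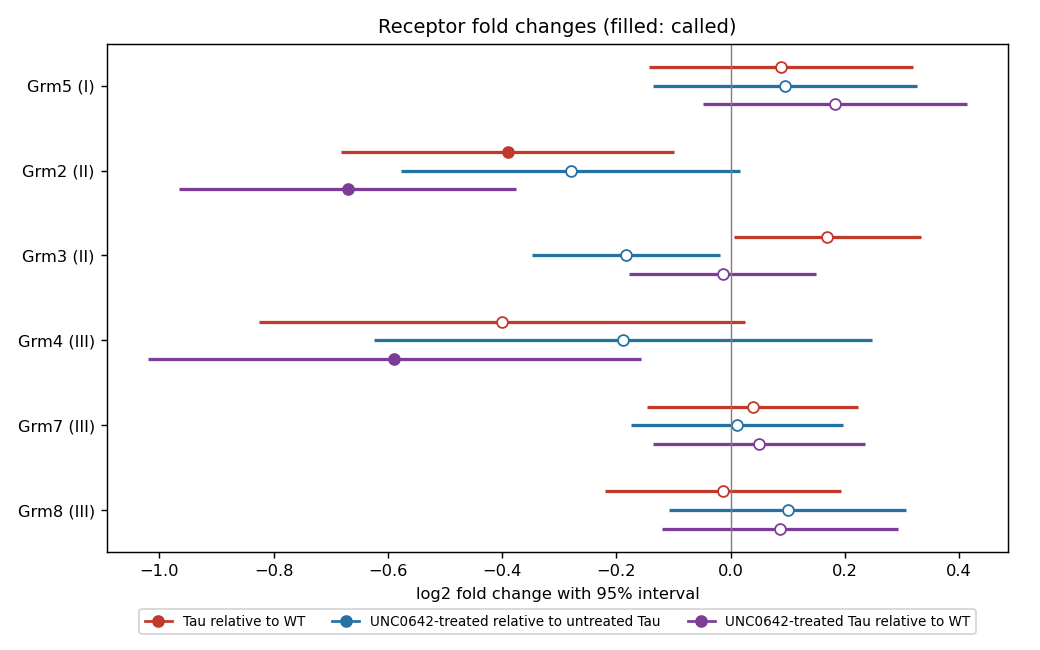
Log2 fold changes (horizontal axis) of the 6 receptor genes in the 3 comparisons, with 95% intervals. Filled points were called. Called values are those of Grm2 in Tau versus WT mice (-0.39) and of Grm2 (-0.67) and Grm4 (-0.59) in treated Tau versus WT mice.

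In group I, Grm5 couples glutamate to calcium release from internal stores. It was at 350 CPM in the library labelled WT replicate 1 and 416 CPM in WT replicate 2, at 443 and 371 CPM in Tau replicates 1 and 2, and at 434 and 436 CPM in the UNC0642 libraries. The WT and Tau libraries overlapped, and both UNC0642 libraries were above both WT libraries. The log2 fold change was 0.088 in Tau versus WT mice, 0.094 after UNC0642 and 0.18 in treated Tau versus WT mice, with standard errors of 0.10. None was called, and the 95% interval of the last ran from -3.30% to 33.2%. Grm5 was called in that comparison in 2 of the 16 alternative fits, at 0.31 without WT replicate 2 and at 0.32 with Xist as a covariate, and it was at 0.061 without the library labelled WT replicate 1. In Tau versus WT mice it was at -0.034 without that library. The Xist fit and the fits without a WT library rest on the same difference between the WT libraries, so they are not separate evidence. Grm5 is abundant in striatal neurons, and the 8 striatal genes, highest in Tau replicate 2, were all called higher in Tau versus WT mice. Their part in the values of Grm5 was not tested.

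In group III, Grm4 was the least abundant member. It was at 27.7 CPM in the library labelled WT replicate 1 and 23.8 CPM in WT replicate 2, at 22.6 and 16.1 CPM in Tau replicates 1 and 2, and at 20.2 and 14.2 CPM in UNC0642 replicates 1 and 2. Both WT libraries were above the other 4, and the Tau and UNC0642 libraries overlapped. These values rest on 282 to 702 counts per library. The means ± SD (n = 2) were 25.7 ± 2.75 CPM for WT, 19.4 ± 4.56 CPM for Tau and 17.2 ± 4.23 CPM for treated Tau mice.

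The log2 fold change of Grm4 was -0.40 in Tau versus WT mice, with a 95% interval from -0.82 to 0.024 and an edgeR adjusted p of 0.423, and it was not called. It was called in 8 of the 16 alternative fits, among them the fit with the replicate number as a block (-0.42), DESeq2's Wald test (-0.40) and scaling by library size alone (-0.47). With a library left out it ran from -0.67, without Tau replicate 1, to -0.18, without Tau replicate 2. It was -0.29 without the library labelled WT replicate 1 and -0.28 with Xist as a covariate, and was called in neither. In treated Tau versus WT mice Grm4 fell by 0.59 (standard error 0.19, edgeR adjusted p = 0.276). The call was lost without the library labelled WT replicate 1 (-0.48) and without UNC0642 replicate 2 (-0.35). Between UNC0642-treated and untreated Tau mice the value was -0.19, and it was 0.084 without Tau replicate 1 and 0.052 without UNC0642 replicate 2.

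Grm4 is known from cerebellar granule cells, and 5 genes listed for these cells summed to 37.9 CPM in the library labelled WT replicate 1 and 27.9 CPM in WT replicate 2, to 30.9 and 20.5 CPM in Tau and to 22.5 and 26.2 CPM in the UNC0642 libraries. Of the 4 genes of this list that were tested, 1 was called, as lower, in each comparison with WT. Gabra6, the defining receptor subunit of granule cells, had 0 to 4 counts in each library. The part of such cells in the values of Grm4 was not tested.

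**Figure D3:**
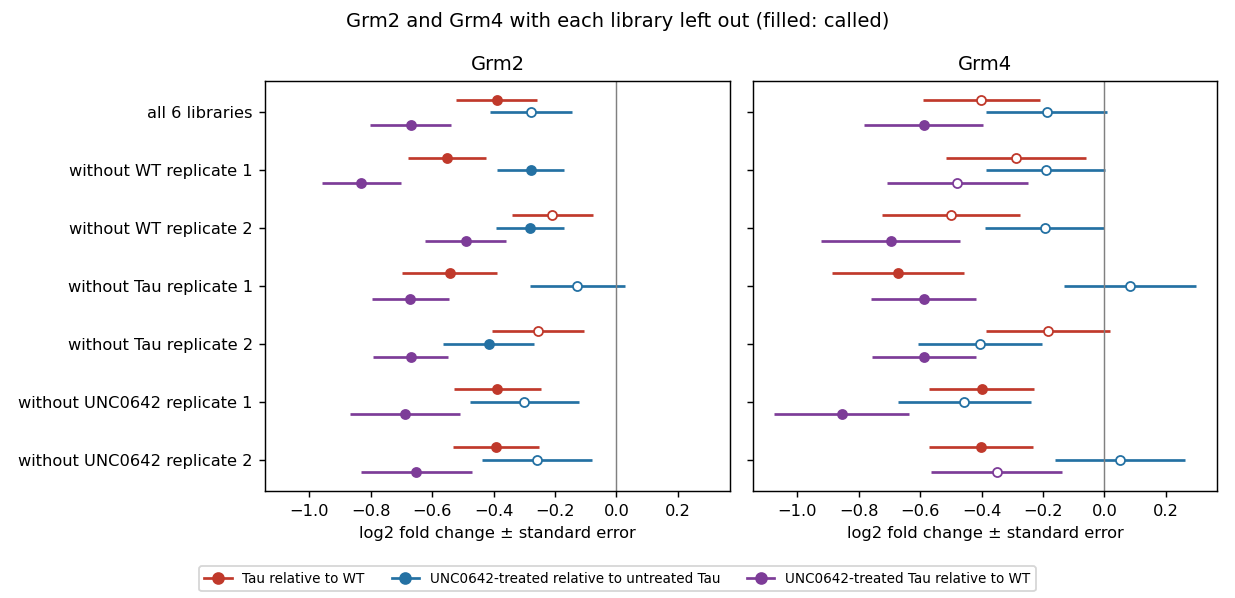
Log2 fold changes of Grm2 and Grm4 (horizontal axis, ± standard error) with all 6 libraries and with each library left out in turn. Filled points were called. The value of Grm2 in treated Tau versus WT mice was called in every fit shown, and that of Grm4 was not called without the library labelled WT replicate 1 or without UNC0642 replicate 2.

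Grm7, the release-limiting receptor of the active zone, had the narrowest range over libraries. It was at 98.5 CPM in the library labelled WT replicate 1, 106 CPM in WT replicate 2, 110 and 100.2 CPM in the Tau libraries and 106 CPM in both UNC0642 libraries, and all groups overlapped. Its highest value was 1.12 times its lowest. The 95% intervals ran from -9.66% to 16.8% in Tau versus WT mice and from -11.4% to 14.7% after UNC0642, and no call was made. The log2 fold change of 0.038 in Tau versus WT mice was -0.031 with scaling by library size alone and -0.019 without the library labelled WT replicate 1. It was 0.050 in treated Tau versus WT mice, and -0.0066 without that library.

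Grm8, a presynaptic receptor of high glutamate affinity, was at 60.2 CPM in the library labelled WT replicate 1 and 52.9 CPM in WT replicate 2, at 55.4 and 56.6 CPM in the Tau libraries and at 59.1 and 60.9 CPM in the UNC0642 libraries. The UNC0642 libraries were above both Tau libraries, and WT overlapped with both groups. The log2 fold changes were -0.014, 0.10 and 0.086 in Tau versus WT mice, after UNC0642 and in treated Tau versus WT mice, with standard errors of 0.093, and none was called. In the middle comparison the 95% interval ran from -7.19% to 23.7%. Without the library labelled WT replicate 1, the values against WT were 0.078 in untreated and 0.18 in treated Tau mice.

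Over all members, 1 of 6 was called in Tau versus WT mice, where 9.81% of the 20409 genes tested were called. None of the 6 was called after UNC0642, against 7.69% of genes in edgeR, although Grm3 had an unadjusted p-value under 0.05, and by DESeq2 and limma-voom none was called either. In treated Tau versus WT mice 2 of 6 were called, against 9.47%. Without the library labelled WT replicate 1, 1 of 6 was called in each of the 3 comparisons. No member had an adjusted p-value under 0.05 in this fit, where 0.157%, 0.0196% and 0.216% of genes did in the 3 comparisons. In each comparison the libraries of 3 of the 6 members did not overlap between groups, and the same held for 43.2%, 41.3% and 44.4% of all genes. The median log2 fold changes of the members were 0.012, -0.086 and 0.018, beside medians of -0.00011, -0.0023 and -0.012 over all genes. With 6 members these counts do not set the receptors apart from other genes. The last 2 comparisons share the UNC0642 libraries, the first 2 the Tau libraries, and the first and last the WT libraries.

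Summed over their members, the receptor groups differed less between conditions than Grm2 and Grm4 did. Group II was at 266 and 299 CPM in WT, at 301 and 293 CPM in Tau and at 258 and 260 CPM with UNC0642, of which Grm3 made up most. Group III was at 186 and 183 CPM, at 188 and 173 CPM, and at 185 and 181 CPM in the same order. All groups overlapped for group III, in which the lower Grm4 was a small part of the sum.

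Ratios of counts within a library do not depend on how libraries were scaled. Counts of Grm3 were 4.20 and 3.63 times those of Grm2 in the WT libraries, 5.22 and 6.36 times in the Tau libraries and 6.00 and 6.23 times in the UNC0642 libraries. The Tau and UNC0642 libraries overlapped, and both lay above WT. For Grm5 to Grm2 the ratios were 6.84 and 6.44 in WT, 9.15 and 9.34 in the Tau libraries and 11.8 and 12.1 in the UNC0642 libraries. This ratio did not overlap between any of the groups, and its 2 libraries within a group were close. No share over other pairs of genes was computed to set beside this. Counts of Grm7 were 3.56 and 4.47 times those of Grm4 in WT and 4.88 and 6.21 times in Tau. They were 5.26 and 7.47 times in the UNC0642 libraries, again with WT below both other groups. The denominators, Grm2 and Grm4, are the members called lower, so these ratios are not separate evidence. For Grm8 to Grm7 all groups overlapped, at 0.611 and 0.497 in WT, 0.503 and 0.565 in Tau, and 0.557 and 0.574 with UNC0642.

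**Figure D4:**
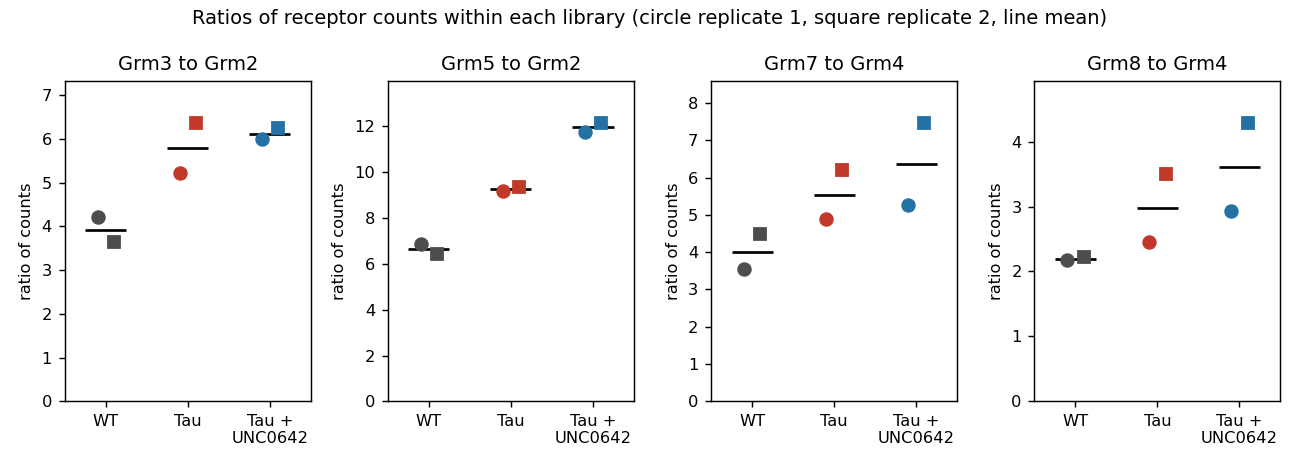
Ratios of receptor counts within each library (vertical axes from 0), for Grm3 and Grm5 relative to Grm2 and for Grm7 and Grm8 relative to Grm4. Circles are replicate 1, squares replicate 2 and lines means. Grm5 to Grm2 was at 6.84 and 6.44 in WT and at 11.8 and 12.1 in UNC0642-treated Tau mice, with the Tau libraries between them.

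The genes that work with these receptors were counted over 6 lists with 75 genes, all of which were tested. In Tau versus WT mice 4 were called higher and 2 lower, together 6 of 75, where 3.72% of all genes were called higher and 6.1% lower. After UNC0642 4 were higher and 2 lower, beside 3.73% and 3.95% of all genes. In treated Tau versus WT mice 8 were higher and 4 lower, beside 3.77% and 5.69%. The median log2 fold changes over the 75 genes were 0.036, -0.031 and 0.015. None of the 7 kinases and arrestins of receptor desensitization was called in any comparison.

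Among scaffolds and binding partners, Homer1, whose product links Grm5 to Shank proteins and to calcium stores, rose in all 3 comparisons. It was at 360 CPM in the library labelled WT replicate 1 and 377 CPM in WT replicate 2, at 479 and 483 CPM in the Tau libraries and at 803 and 868 CPM in the UNC0642 libraries, with no overlap. The log2 fold changes were 0.38 in Tau versus WT mice and 0.80 after UNC0642, each with a standard error of 0.074 (edgeR adjusted p = 0.108 and 0.00573). Homer1 was called in each of the 16 alternative fits in both comparisons, and with a library left out the second value stayed between 0.74 and 0.85. The first was 0.35 without the library labelled WT replicate 1. Relative to WT, Homer1 rose by 1.18 in treated Tau mice, and by 1.147 without that library. Counts per gene do not separate its long forms from the short, activity-induced form. Homer2 was at 90.4 to 126 CPM and Homer3 at 2.25 to 4.18 CPM, and neither was called.

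Shank1, a postsynaptic scaffold that binds Homer, was at 148.5 CPM in the library labelled WT replicate 1, 148.7 CPM in WT replicate 2, 121 and 94.8 CPM in the Tau libraries and 96.6 and 80.3 CPM in the UNC0642 libraries. Both WT libraries were above the other 4. It fell by 0.46 on the log2 scale in Tau versus WT mice (adjusted p = 0.234) and by 0.75 in treated Tau versus WT mice (edgeR adjusted p = 0.0480). After UNC0642 it fell by 0.29 (adjusted p = 0.538), a call that was kept in 4 of the 6 fits without a library. Its values against WT were -0.46 and -0.75 also without the library labelled WT replicate 1. Cav1, which is also an endothelial gene, fell by 0.53 in Tau versus WT mice, from 18.2 and 15.9 CPM to 10.5 and 13.2 CPM, and was at -0.43 without that library. Of 5 endothelial genes 3 were called lower in the same comparison, with a median log2 fold change of -0.35. The 5 genes summed to 171 and 162 CPM in WT, 117 and 128 CPM in the Tau libraries and 121 and 163 CPM in the UNC0642 libraries, and their part in the value of Cav1 was not tested.

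Elfn2, a synaptic adhesion protein that binds group III receptors, rose by 0.35 in Tau versus WT mice, from 122 and 136 CPM to 178 and 151 CPM, and was at 0.27 without the library labelled WT replicate 1. Cav1 and Elfn2 were each called in 5 of the 6 fits without a library. Grasp (tamalin), a trafficking scaffold of group I receptors, rose by 0.49 after UNC0642, from 35.6 and 26.5 CPM to 43.5 and 44.1 CPM, and this call was lost without Tau replicate 2 (0.29). Calm2, a calmodulin gene, rose by 0.30 in treated Tau versus WT mice, a call that was lost without the library labelled WT replicate 1 (0.25).

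Of the genes for translation and long-term depression, Arc, an activity-induced gene whose translation group I receptors raise, was at 231 CPM in the library labelled WT replicate 1, 175 CPM in WT replicate 2, 333 and 369.7 CPM in the Tau libraries and 536 and 553 CPM in the UNC0642 libraries. It rose by 0.79 in Tau versus WT mice (edgeR adjusted p = 0.0416) and by 0.63 after UNC0642 (edgeR adjusted p = 0.171). The standard errors were 0.12. The call after UNC0642 was kept in 15 of the 16 alternative fits. All 6 fits without a library kept it, and it was lost with Xist as a covariate, an adjustment that rests largely on the WT libraries. In Tau versus WT mice the value was 1.00 without the library labelled WT replicate 1. Relative to WT, Arc rose by 1.43 in treated Tau mice, and by 1.64 without that library. Eef2k, the kinase of an elongation factor, fell by 0.31 in treated Tau versus WT mice, a call kept in 4 of the 6 fits without a library, and was at -0.41 without that WT library.

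In the Gq and phospholipase C list of 12 genes, Rgs2, which shortens Gq signals, rose by 0.41 in Tau versus WT mice, from 49.2 and 55.2 CPM to 68.0 and 71.2 CPM, and by 0.35 in treated Tau versus WT mice. These values were 0.33 and 0.27 without the library labelled WT replicate 1. Rgs4 rose by 0.31 in that last comparison, and this call was lost without the library labelled WT replicate 1 (0.17). Gnaq, the G protein subunit of group I receptors, was at 198 to 232 CPM and was not called. Of the 16 genes of the Gi/o arm, Kcnj6, a potassium channel opened by Gi/o receptors, fell by 0.29 after UNC0642, from 58.9 and 56.0 CPM to 49.4 and 44.4 CPM, and was called in 3 of the 6 fits without a library. Gnai3 rose by 0.27 in treated Tau versus WT mice, a call kept in 3 of the 6 fits without a library, and was at 0.38 without that WT library. Gnao1 was at 268 to 346 CPM and was not called.

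Of the 13 genes that supply and clear glutamate and NAAG, the peptide transmitter that acts on Grm3, Slc7a11, the cystine-glutamate exchanger that feeds group II receptors, rose by 0.34 after UNC0642, from 118 and 108 CPM to 144 and 141 CPM. The call was kept in 4 of the 6 fits without a library and was lost without Tau replicate 2 (0.27). The neuronal glutamate transporter Slc1a1 rose by 0.26 in treated Tau versus WT mice, and this call too was lost without that WT library (0.25). The astrocyte transporter Slc1a2, at 3047 to 3605 CPM, and the NAAG synthases Rimkla, at 7.10 to 9.98 CPM, and Rimklb, at 25.9 to 35.3 CPM, were not called.

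**Figure D5:**
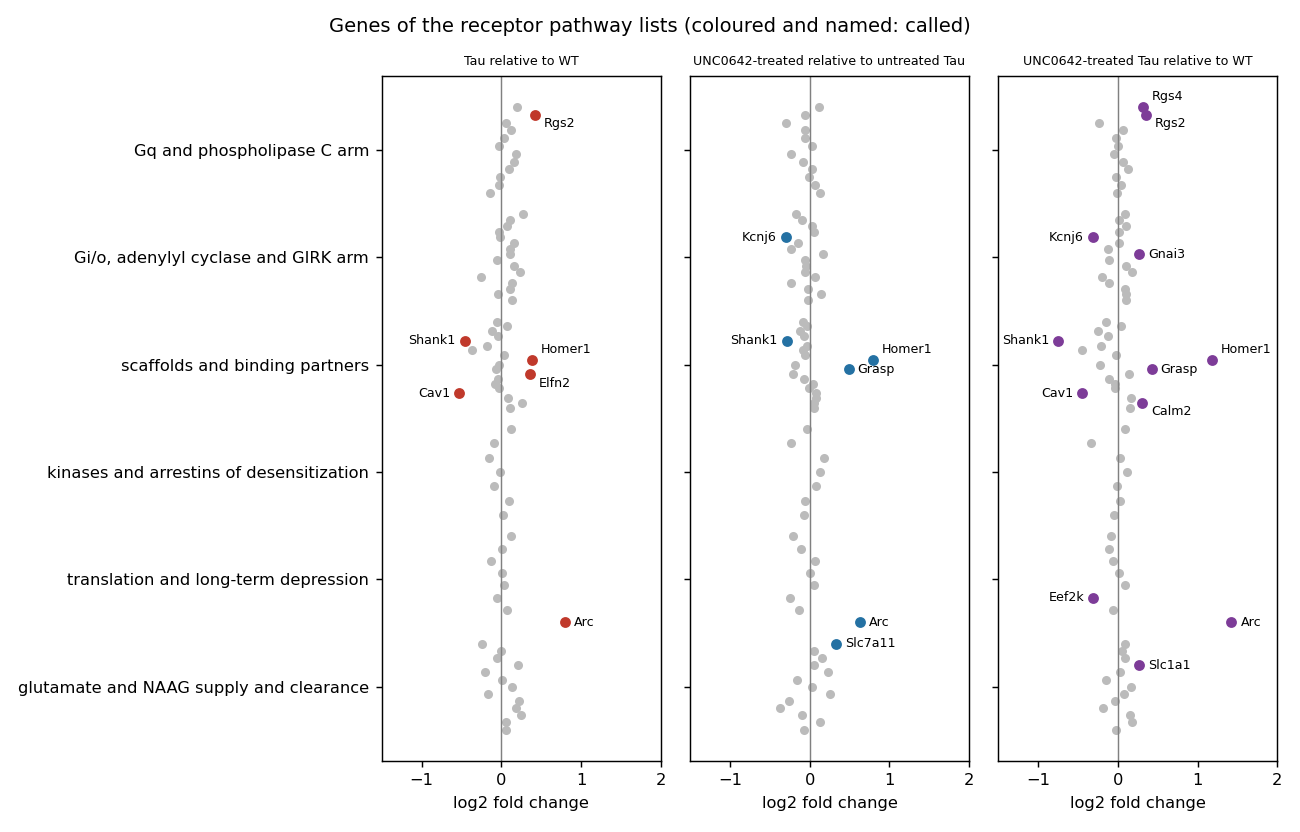
Log2 fold changes (horizontal axes) of the 75 genes of the 6 receptor pathway lists in the 3 comparisons. Each point is a gene, and called genes are coloured and named. Homer1 and Arc are the points farthest to the right in treated Tau versus WT mice (1.18 and 1.43), and Shank1 is the farthest to the left (-0.75).

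The genes most like each receptor were found by the root mean square difference of log2 CPM, centred on each gene's mean over the 6 libraries. For Grm2 these were AI606181 (0.056) and Slc16a13 (0.071), and 16 genes lay within 0.1. For Grm4 they were Cd276 (0.047) and Prrc1 (0.076), with 8 genes within 0.1. The profiles of the other members, which varied less, had many near neighbours, from 1049 genes within 0.1 for Grm5 to 3872 for Grm7. Nearest were Cmtm4 and Lamtor5 to Grm5, Max and Txlna to Grm3, Ica1l and Ppp2r2c to Grm7, and Wdr61 and Dstyk to Grm8. With 6 libraries this likeness is a description only.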

How the data were processed

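The authors trimmed reads of stranded, ribosomal RNA-depleted libraries with Cutadapt, aligned them with TopHat2 to mouse RefSeq mRNAs (mm10 in the submitters' processing notes) and deposited raw counts per gene made with featureCounts, without normalization. The strand setting of the counting and the gene models were not given in the sources used here. Gm28111 shares 470 of 4894 exon bases with Grm2 on the opposite strand and had 9 counts over all libraries. In WT replicate 2 and Tau replicate 2, 26 gene names read as dates were joined by row position.

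Genes were kept by filterByExpr (minimum count 10, minimum total 15), which left 20409. They were fitted with edgeR 4.0.16 (TMM, quasi-likelihood, a mean per group, all 6 libraries, 3 residual degrees of freedom) in R 4.3.3. The typical variation between replicate mice was 12.3%. P-values were Benjamini-Hochberg adjusted over all genes. Standard errors and 95% intervals come from the F statistics. Alternatives used DESeq2 1.42.0 (size factors, Wald test), limma-voom (limma 3.58.1), other filters, scalings, thresholds and sets of genes, the compared groups alone, a replicate block, log2 CPM of Xist as a covariate, and each library left out, in which case a lone library is taken to vary like the others. The counting of calls was tested on simulated data. Exon lengths are from GENCODE M21 (GRCm38), matched by symbol for 53669 of 54429 genes.

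The members and lists were chosen with earlier results of these data known. Named are the members, up to 5 called pathway genes per direction and comparison with the smallest p, genes set beside a result, and the 2 nearest profiles per member. Rgs4, Gnai3, Homer2, Homer3, Gnaq, Gnao1, Slc1a2, Rimkla, Rimklb and Gm28111 were chosen after their values were seen. Replicates are different mice. Protein sequences were not used here.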

Additional observations from a re-analysis of the deposited data

How the results depend on the processing

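With 2 mice per group, counts of called members are small and unstable. In Tau versus WT mice the count, 1, was 2 with library size alone, no filter, DESeq2's Wald test, the replicate block and the 2 compared groups alone, 0 with adjusted p-values or a fold of 1.5, and 0 to 2 with each library left out. After UNC0642 the count, 0, was 1 with no filter and with the 2 compared groups alone, and 0 to 1 with a library left out. In treated Tau versus WT mice the count, 2, was 0 with adjusted p-values and 1 to 3 with a library left out. With Xist as a covariate it was 3. The adjusted p-values counted are those of the main fit. In treated Tau versus WT mice, Grm2 had an adjusted p of 0.0016 by DESeq2's Wald test and 1.7e-06 in edgeR with no filter. By limma-voom it was 0.103, and in edgeR with the replicate block 0.187. In edgeR with no filter, Grm4 had 0.0042 in that comparison, and Grm2 had 0.034 in Tau versus WT mice. Called pathway genes numbered 6, 6 and 12 in the 3 comparisons and 1, 1 and 3 with adjusted p-values. With a library left out they ranged from 6 to 13 in the first (13 without WT replicate 2, 11 without Tau replicate 1 and 10 without Tau replicate 2) and from 7 (without UNC0642 replicate 2) to 13 in the last. The causes were not tested.

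Of 288 values of single members under alternatives, 248 kept their sign and their side of the threshold, 15 gained and 4 lost a call, and 21 changed sign, none of which was a call. With Xist as a covariate these were -0.013 for Grm5, -0.0075 for Grm7 and 0.070 for Grm8 in Tau versus WT mice, 0.036 for Grm2 and -0.077 for Grm8 after UNC0642, and 0.054 for Grm3 and -0.0070 for Grm8 in treated Tau versus WT mice. With library size alone Grm7 was at -0.031 in Tau versus WT mice. With a library left out, values in Tau versus WT mice ran from -0.046 to 0.22 for Grm5, -0.033 to 0.11 for Grm7 and -0.10 to 0.078 for Grm8. After UNC0642 they ran from -0.031 to 0.23 for Grm5, -0.46 to 0.084 for Grm4 and -0.058 to 0.082 for Grm7. In treated Tau versus WT mice they ran from -0.078 to 0.051 for Grm3, -0.0066 to 0.11 for Grm7 and -0.0030 to 0.18 for Grm8.

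Same-numbered libraries came from different mice, and their deviations correlated at -0.034, -0.0033 and -0.021 over genes. Over all genes the numbers thus showed no pairing, but this cannot exclude it for a single gene. For Grm4, replicate 2 was below replicate 1 in each group. The replicate block lowered its standard error in Tau versus WT mice from 0.19 to 0.13. With the replicate block, called genes numbered 1792, 1404 and 1755 in place of 2003, 1569 and 1932, and Grm4 was also called in Tau versus WT mice. Grm4 rests on 282 to 702 counts per library. Its replicates differed by 0.22 in WT, 0.48 in Tau and 0.50 with UNC0642 on the log2 scale.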
